A study of Mus musculus with 14 samples.

Results

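Bulk RNA-seq of cultured skeletal clones was examined for 40 genes of ribosome biogenesis, the nucleolar pathway that transcribes ribosomal RNA with RNA polymerase I (Pol I) and builds it into ribosomal subunits. They are a fixed list of gene symbols taken from 30503 genes in the count table, and all 40 were found, passed the filter on low counts and were among the 17358 genes tested. The list was chosen with earlier results of these data known, so its shares beside those of all genes are descriptive. For description they were split by role into 6 abundant nucleolar proteins, 7 Pol I genes, 4 core proteins of the box C/D and 4 of the box H/ACA particles, and 8 assembly factors of the small and 11 of the large subunit. The study compared clones grown from single tdTomato+ cells of mouse femur bone marrow to ask how the loss of p53 changes skeletal stem cells, and all mice had received tamoxifen at P21. There were 5 Fgfr3-WT (P23) clones (Fgfr3-creER; R26R(tdTomato/+), isolated at postnatal day 23), 5 Fgfr3-p53 cKO (P28) clones (Fgfr3-creER; Trp53fl/fl; R26R(tdTomato/+), isolated at postnatal day 28) and 4 Fgfr3-p53 cKO (P4M) clones of the same cKO genotype, isolated at 4 months. They are called WT, P28 and P4M clones from here on. All groups carried Fgfr3-creER, a transgene on an artificial chromosome that drives tamoxifen-dependent Cre from Fgfr3 sequences, and the R26R-tdTomato reporter. By the labels the WT and P28 clones were at passage 8 and the P4M clones at passage 6 to 8, whereas the methods give passage 6 to 8 for both cKO groups. Each library was 1 clone, and the labels do not tie clones to mice, so that the spread between clones need not be a spread between animals.

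In the nucleolus, Pol I copies the ribosomal RNA genes into a long precursor. Small nucleolar RNAs guide the chemical modification of this precursor in particles of the box C/D type, which methylate, and of the box H/ACA type, which form pseudouridine, while assembly factors fold, trim and export the small and large subunits. The pathway is known to be active in growing cells, Myc is known to raise many of its genes, and its disturbance is known to stabilize p53 through ribosomal proteins that bind Mdm2.

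Total counts ranged from 25688946 to 38958693 in the WT, from 37606033 to 48648618 in the P28 and from 43757832 to 52857424 in the P4M clones. Trp53, the deleted gene, lay at 49.9 to 68.2 CPM (counts per 1000000 of the library total after TMM scaling) in the WT and at 1.72 to 2.84 CPM in the cKO clones, as labelled. The summed CPM, here without TMM scaling, of 10 stromal markers was 2504 to 12787 in the WT, 32239 to 49955 in the P28 and 22375 to 82730.5 in the P4M clones. Of these, Vim and Pdgfrb were at no less than 1531 and 217 CPM in any clone, while Col1a1 was at 1.31 to 1012 CPM in the WT clones and at no less than 7317 in any cKO clone, and Cxcl12 and Lepr were at 0 in at least 1 WT clone. The summed CPM of the 10 haematopoietic markers found, of 12 listed, was 17.7 to 131 in the WT, 3.70 to 22.8 in the P28 and 5.005 to 8.65 in the P4M clones, mainly from Lyz2 and Cd68, with Ptprc near 0 and Adgre1 and Mpo at 0 in the WT clones. The summed CPM of 6 endothelial markers was 1.02 to 3.41, 0.771 to 6.08 and 7.22 to 247.7 in the same order. In the P4M clones it came mainly from Vwf, at 3.43 to 235 CPM, and Kdr, at 2.47 to 12.5 CPM. In the WT clones Vwf was at 0.838 to 2.75 and Kdr at 0 to 0.513 CPM. Cdh5 was at 0 in every clone, and Pecam1, Tek and Emcn were at no more than 0.372 CPM in any. Mki67, a marker of cycling cells, lay at 0.850 to 33.4, 49.1 to 142 and 54.9 to 172 CPM, and Myc at 10.2 to 29.6, 44.1 to 79.6 and 119 to 151 CPM. These values moved with the groups, and their part in the results was not tested. The library names of all WT clones carry the number 1303 and those of all cKO clones 2963. The labels do not say what this number stands for, and whatever goes with it cannot be told apart from genotype. Age at isolation also went with genotype by the labels, as did growth and survival in culture by the paper. The part of these in the differences between WT and cKO clones was not tested. A count of 0 in a library allows up to 0.117 CPM, a limit far below every member. In bulk samples, fewer cells of a type and less RNA per cell cannot be told apart, and CPM gives the share of a gene in its library, not its amount per cell.

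Most ribosome biogenesis genes were more abundant in the cKO clones, by a median of 1.64-fold. In all cKO against WT clones, 28 of the 40 were called higher by edgeR at an FDR of 0.05, where 23.1% of all tested genes were called higher, and 1 was called lower, where 25.7% were. Their median log2 fold change was 0.71, against -0.05 over all tested genes. Leaving out any 1 clone gave 25 to 29 genes called higher and 1 called lower. The largest differences were those of Noc2l, Wdr43, Utp4, Polr1e and Taf1d, and the gene called lower was Nop10.

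The cKO groups stood at different heights above the WT clones. In P28 against WT clones, 22 genes were called higher (19.2% of all genes) and 1 lower (19.7%), with a median log2 fold change of 0.50 against -0.02 over all genes. This count was sensitive to single clones and fell to 12 without WT replicate 2, 14 without WT replicate 4, 13 without P28 replicate 4 and 12 without P28 replicate 5. In P4M against WT clones, 30 were called higher (22.3%) and 1 lower (23.6%), with a median of 0.92 against -0.06. The comparisons share the WT clones. Mean CPM ran in the order WT, P28, P4M, from lowest to highest, in 30 of the 40 genes and in 23.8% of all tested genes.

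**Figure D1:**
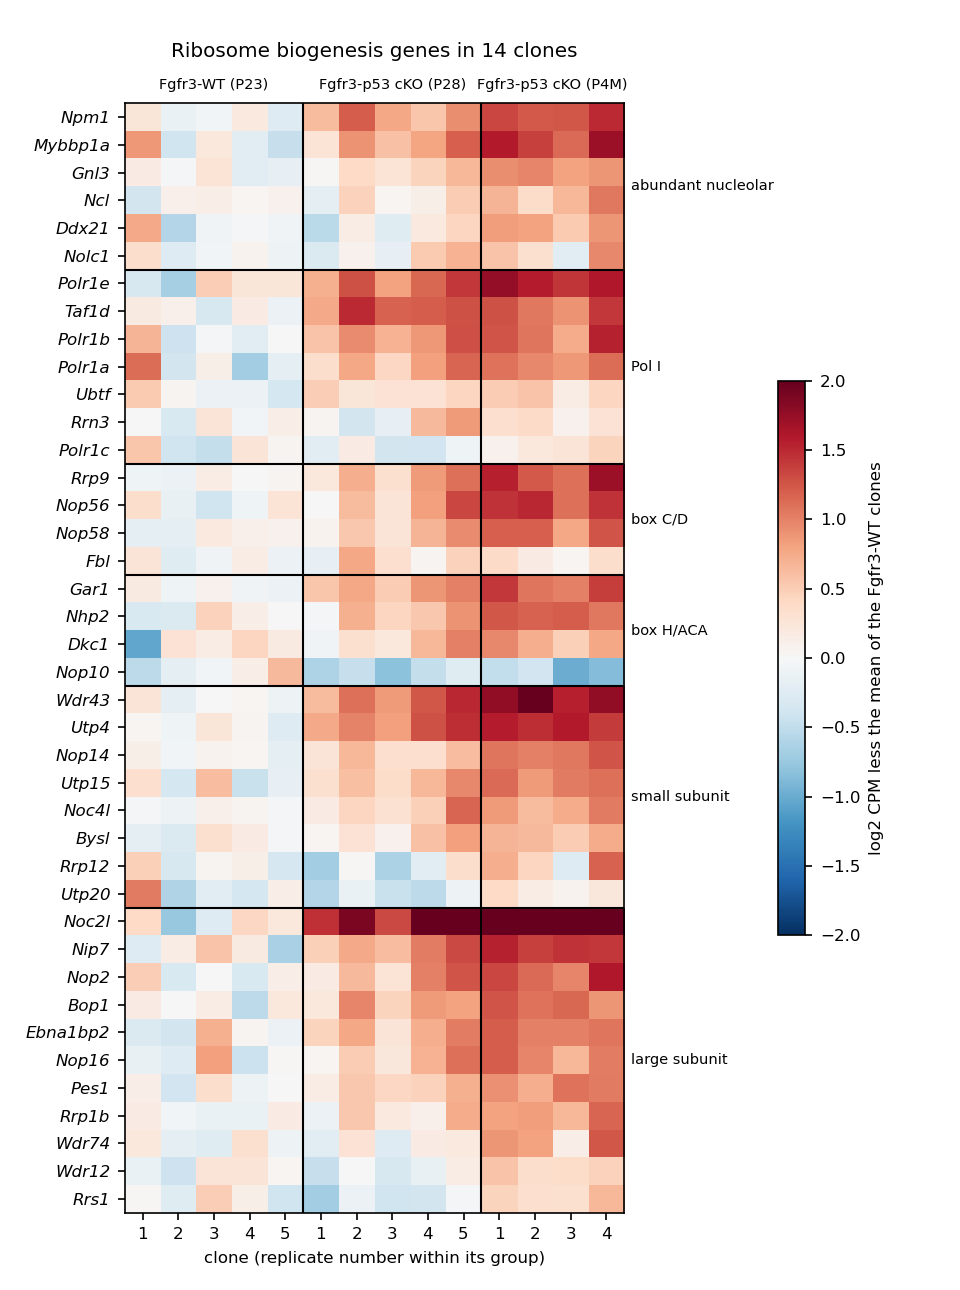
Expression of the 40 genes (rows, by role) in the 14 clones (columns, by group and replicate number) as log2 CPM less the mean of the 5 WT clones; red is higher, blue is lower and the colour scale ends at -2 and 2. The P4M columns are red for most rows, the P28 columns are paler, and Nop10 is the row that is blue in all 9 cKO clones.

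Every cKO clone lay above every WT clone for 11 of the 40 genes, against 9.73% of all tested genes. These were Noc2l, Wdr43, Utp4, Polr1e, Taf1d, Npm1, Rrp9, Gar1, Bop1, Nop14 and Noc4l. For Bop1 the groups barely parted, with the highest WT clone at 69.53 CPM and the lowest P28 clone at 69.65 CPM. Taken by group, the P28 clones all lay above the WT clones for 11 genes (13% of all genes) and the P4M clones for 27 (17.8%).

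Promoter sequences were read for the 3 genes with the largest differences and for the gene that was lower. RefSeq windows on GRCm38.p6, from 250 bases before to 50 bases after the annotated start, were matched by symbol for 35 of the 40 genes, leaving out Npm1, Rrp12, Rrs1, Fbl and Bop1. They were searched for the E-box CACGTG, a palindrome that reads alike on both strands and is known as a binding motif of Myc with Max. The windows are on the plus strand and run 5′ to 3′, with the E-box in capitals. Wdr43 is at chr17:71615965-71616264, Utp4 at chr8:106893390-106893689, Noc2l at chr4:156235760-156236059 and Nop10 at chr2:112261676-112261975.
Wdr43: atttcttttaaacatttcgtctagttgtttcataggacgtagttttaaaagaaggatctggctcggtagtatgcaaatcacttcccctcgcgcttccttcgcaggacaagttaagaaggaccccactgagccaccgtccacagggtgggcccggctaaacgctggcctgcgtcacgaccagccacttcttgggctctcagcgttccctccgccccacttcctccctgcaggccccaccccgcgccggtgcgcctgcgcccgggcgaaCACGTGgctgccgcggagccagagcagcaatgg
Utp4: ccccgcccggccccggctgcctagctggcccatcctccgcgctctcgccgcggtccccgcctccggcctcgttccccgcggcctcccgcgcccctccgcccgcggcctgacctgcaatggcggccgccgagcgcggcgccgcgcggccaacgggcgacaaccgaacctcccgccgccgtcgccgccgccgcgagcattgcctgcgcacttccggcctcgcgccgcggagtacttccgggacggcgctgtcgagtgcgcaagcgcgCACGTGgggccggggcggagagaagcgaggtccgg
Noc2l: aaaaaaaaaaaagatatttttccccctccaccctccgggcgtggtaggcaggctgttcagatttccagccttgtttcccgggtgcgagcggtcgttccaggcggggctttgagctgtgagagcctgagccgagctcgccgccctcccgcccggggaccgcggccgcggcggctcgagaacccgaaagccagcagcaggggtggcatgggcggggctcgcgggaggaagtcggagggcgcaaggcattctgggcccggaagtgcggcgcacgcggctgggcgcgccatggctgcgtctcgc
Nop10: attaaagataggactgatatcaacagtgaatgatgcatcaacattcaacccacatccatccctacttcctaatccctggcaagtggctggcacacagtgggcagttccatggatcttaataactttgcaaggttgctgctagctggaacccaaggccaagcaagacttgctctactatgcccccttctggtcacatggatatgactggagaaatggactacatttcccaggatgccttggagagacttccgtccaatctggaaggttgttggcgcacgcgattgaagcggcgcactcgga
The Wdr43 and Utp4 windows each hold 1 E-box, which begins 18 and 16 bases into the transcribed side, and the Noc2l and Nop10 windows hold none. Of the 35 genes, 7 (20%) hold it, namely Wdr43, Utp4, Mybbp1a, Nop2, Pes1, Rrn3 and Utp20. By gene, 11.5% of the tested genes with a window and 8.09% of all genes with a window hold it. Among the members called higher in all cKO against WT clones the share was 5 of 26 (19.2%), and among the others 2 of 9 (22.2%). Rrn3 and Utp20, which hold it, were not called. A match of letters is a description of these windows. The windows of the members had a median of 59.7% G and C, against 52.7% over all windows.

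Levels between genes were compared as TPM, which is scaled to gene length. Npm1, nucleophosmin, was the most abundant, at 539 ± 86.5 TPM in the WT (SD, n = 5), 1164 ± 194 in the P28 (SD, n = 5) and 1429 ± 153 in the P4M (SD, n = 4) clones. Ncl, nucleolin, followed at 219.6 ± 32.1 TPM in the WT (SD, n = 5), 287 ± 55.5 in the P28 (SD, n = 5) and 351 ± 82.3 in the P4M (SD, n = 4) clones. Both are abundant nucleolar proteins, and together they made up 29.8% to 34.8% of the summed TPM of the 40 genes in the WT clones and 30.9% to 39.6% in the cKO clones. The ratio of Npm1 to Ncl was 2.20 in the median WT clone, 4.32 in the median P28 clone and 4.14 in the median P4M clone, with WT clones at 1.93 to 4.12 and cKO clones at 3.52 to 4.85, so that the ranges overlapped. The sum over all 40 genes was 2096 to 2847 TPM in the WT, 3189 to 5056 in the P28 and 4475 to 5700 in the P4M clones. At the other end, Rrp1b averaged 13.4, Polr1b 13.1 and Rrp12 13.8 TPM over all clones.

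Of the 6 abundant nucleolar proteins, 4 rose in all cKO against WT clones. Npm1 was at 526, 406, 429.6, 510.2 and 372 CPM in the WT clones, 687, 1031, 762, 654 and 847 in the P28 clones, and 1128, 1041, 1053 and 1258 in the P4M clones. The cKO clones all lay above the WT clones, and the log2 fold change was 1.07 (adjusted p = 6.4e-05, SE 0.14). Mybbp1a, Myb-binding protein 1a, rose 2.04-fold, Gnl3, the GTPase nucleostemin, 1.54-fold and Ncl 1.37-fold (adjusted p = 0.0266). The Ncl call did not hold in 3 of the 14 refits with 1 clone removed. Ddx21, an RNA helicase of Pol I transcription and rRNA processing, was at 308, 121, 172, 177 and 172 CPM in the WT clones, 125, 200.5, 153, 208 and 245 in the P28 clones, and 324, 316, 261 and 333 in the P4M clones. Replicate 1 stood above all other WT clones and within the P4M range, and the P28 clones overlapped the WT clones. In all cKO against WT, Ddx21 was not called (log2 fold change 0.34, adjusted p = 0.200), and without WT replicate 1 it was 0.57 (adjusted p = 0.0174). In P4M against WT, Ddx21 was called higher (0.70, adjusted p = 0.0331), a call lost in 7 of the 14 fits without 1 clone. Nolc1, a chaperone of small nucleolar particles, spanned 70.4 to 107 CPM in the WT, 69.3 to 136 in the P28 and 73.1 to 165 in the P4M clones and was not called (adjusted p = 0.203).

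Of the 7 Pol I genes, 5 rose. Polr1e, a Pol I subunit that acts in a pair aiding initiation and elongation, was at 5.08, 4.02, 8.90, 7.54 and 7.52 CPM in the WT clones, 10.4, 15.3, 11.1, 14.1 and 16.8 in the P28 clones, and 21.5, 18.8, 17.1 and 19.2 in the P4M clones. The 9 cKO clones were above the 5 WT clones, with a log2 fold change of 1.28 (adjusted p = 0.000246, SE 0.20). Taf1d, a subunit of the selectivity factor that brings Pol I to its promoter, was at 48.1, 45.5, 34.1, 47.4 and 39.2 CPM in the WT clones, 72.2, 119.6, 96.3, 98.2 and 103 in the P28 clones, and 103, 88.7, 78.98 and 113 in the P4M clones. Every cKO clone exceeded every WT clone, and the P4M clones lay within the P28 range. Taf1d was 2.29-fold higher than WT in P28 and 2.24-fold in P4M clones (adjusted p = 0.000122 and 0.000144). Between P4M and P28 its log2 fold change was -0.03 (SE 0.16). Of the subunits that form the catalytic centre, Polr1b rose 1.98-fold (adjusted p = 0.00130) and Polr1a 1.66-fold (adjusted p = 0.0332). The Polr1a call was lost in 7 of 14 fits without 1 clone, and its WT clones spread from 37.7 to 132 CPM, the highest again being replicate 1. Ubtf, the factor that keeps ribosomal genes open, rose 1.28-fold (adjusted p = 0.0461), a call that was lost in 12 of those fits.

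Polr1c, which Pol I shares with Pol III, did not pass the test. It was at 98.2, 50.9, 48.1, 79.95 and 69.3 CPM in the WT clones, 57.2, 74.6, 51.5, 51.1 and 62.9 in the P28 clones, and 71.1, 77.1, 80.1 and 90.9 in the P4M clones, with overlap of all groups and a log2 fold change of -0.01 (adjusted p = 0.972, SE 0.17). Its sign changed with the scaling. Per length it was the most abundant of the 7 Pol I genes in the WT clones, whereas Taf1d had the highest mean in both cKO groups. Polr1c was at 139 ± 47.6 TPM in the WT (SD, n = 5), 101 ± 15.4 in the P28 (SD, n = 5) and 112 ± 14.01 in the P4M (SD, n = 4) clones. Rrn3, which links Pol I to its promoter factors, spanned 39.2 to 57.9 CPM in the WT, 37.5 to 87.4 in the P28 and 51.7 to 63.3 in the P4M clones (adjusted p = 0.264), and P28 replicates 4 and 5 were above all other clones.

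Among the core proteins of the box C/D particles, Nop56, Nop58 and Rrp9 rose, and Fbl was not called. Nop56, a scaffold of the particle, was at 119.8, 84.6, 70.8, 87.9 and 113 CPM in the WT clones, 92.9, 145, 111, 164 and 236 in the P28 clones, and 254, 266, 199.6 and 255 in the P4M clones. The P28 clones ran from within the WT range up to the P4M range, and the P4M clones were above every WT clone. Its log2 fold change was 1.01 (adjusted p = 0.00167, SE 0.21). Rrp9, the protein particular to the U3 particle, was at 22.7, 22.3, 26.8, 24.1 and 25.2 CPM in the WT clones, 27.9, 39.9, 30.1, 43.4 and 52.1 in the P28 clones, and 70.9, 56.4, 52.04 and 79.5 in the P4M clones. All cKO clones were above the WT clones, which lay close together, and the log2 fold change was 1.05 (adjusted p = 0.000212, SE 0.16). Fbl, the methyltransferase, spanned 44.1 to 62.5 CPM in the WT, 46.4 to 89.1 in the P28 and 53.6 to 67.99 in the P4M clones, with a log2 fold change of 0.27 (adjusted p = 0.151), and limma on TPM called it at 0.44 (adjusted p = 0.0248). The TPM ratio of Fbl to Nop56 was 0.757 in the median WT clone, 0.698 in the median P28 clone and 0.367 in the median P4M clone, and that of Nop56 to Nop58 was 1.13, 1.06 and 1.15. Fbl is uncertain, because 690 of its bases are 99.6% identical to a processed transcript of Tulp4, a gene with more counts. By the methods reads without a single place were not counted. Yet the count table equals the rounded deposited expected counts, whose making is not given, so how shared reads were assigned is not known.

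The box H/ACA core, which is also part of telomerase, held genes that moved in opposite directions. Nop10, its smallest protein, was at 29.4, 36.7, 40.3, 46.2 and 65.8 CPM in the WT clones, 27.4, 30.5, 23.7, 30.3 and 35.5 in the P28 clones, and 29.9, 32.4, 21.2 and 22.96 in the P4M clones. The cKO clones lay low, yet overlapped the lowest WT clone, replicate 1, and WT replicate 5 was the highest. Nop10 fell in all cKO against WT clones by a log2 fold change of -0.64 (adjusted p = 0.00939, SE 0.18), and this call was kept in every fit that left out 1 clone. In P28 against WT it was -0.57 (adjusted p = 0.0425), a call lost in 8 of the 14 such fits, and in P4M against WT -0.71 (adjusted p = 0.0177), a call lost in 2. On the TPM scale with limma the fall in all cKO against WT was not called.

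Gar1 and Nhp2, the partners of Nop10, rose. Gar1 was at 19.7, 16.4, 18.4, 16.6 and 15.9 CPM in the WT clones, 25.6, 29.8, 24.7, 31.9 and 34.9 in the P28 clones, and 46.1, 36.6, 35.1 and 45.5 in the P4M clones, with every cKO clone above every WT clone and a log2 fold change of 0.99 (adjusted p = 4.48e-05, SE 0.12). Nhp2 was at 29.03, 29.2, 49.2, 39.04 and 35.6 CPM in the WT clones, 35.1, 58.6, 48.1, 51.996 and 66.6 in the P28 clones, and 84.7, 80.8, 82.8 and 74.01 in the P4M clones, with P28 replicates 1 and 3 inside the WT range and the P4M clones above all others, and its log2 fold change was 0.83 (adjusted p = 0.00107, SE 0.16). Dkc1, the pseudouridine synthase dyskerin, was at 20.7, 51.6, 46.9, 56.9 and 48.1 CPM in the WT clones, 40.3, 53.001, 48.9, 67.1 and 84.9 in the P28 clones, and 82.7, 70.2, 58.8 and 72.1 in the P4M clones. WT replicate 1 lay far below every other clone, and the other WT clones overlapped the P28 clones. Dkc1 was not called (log2 fold change 0.53, adjusted p = 0.0712), and without WT replicate 1 it was 0.33 (adjusted p = 0.140). With limma on TPM, Dkc1 was called at 0.84 (adjusted p = 0.00587). The TPM ratio of Nop10 to Gar1 was 0.797 to 2.14 in the WT, 0.515 to 0.671 in the P28 and 0.286 to 0.498 in the P4M clones. These ranges did not overlap, and the ratio of Nop10 to Nhp2 fell into separate ranges likewise, at 0.718 to 1.65, 0.441 to 0.688 and 0.228 to 0.359. For Nop10 over Dkc1 the cKO clones, at 0.576 to 1.37, also lay below the WT clones, at 1.65 to 2.83.

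**Figure D2:**
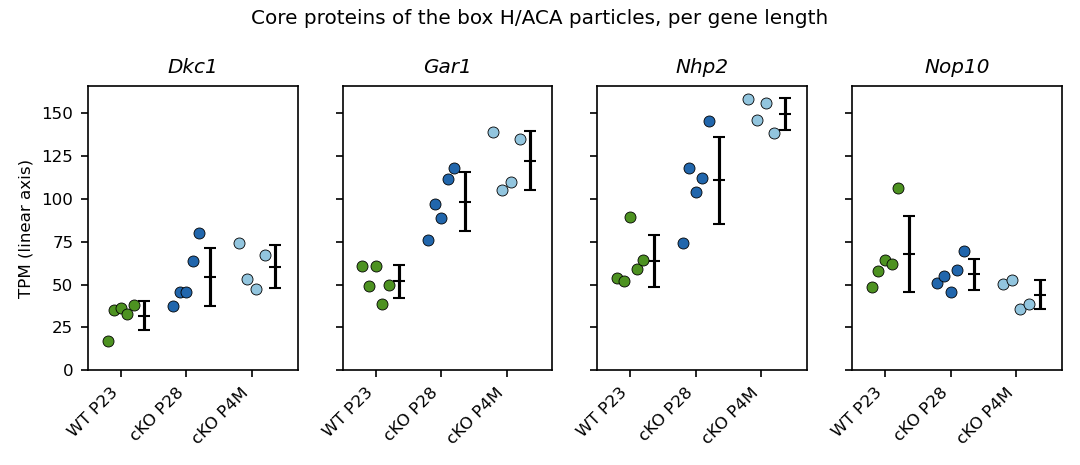
TPM (linear axis from 0) of the 4 core proteins of the box H/ACA particles in every clone; points are clones and bars to their right show mean and SD over 5 WT, 5 P28 and 4 P4M clones. The Gar1 and Nhp2 means lie higher in P28 than in WT and highest in P4M clones, Dkc1 has 1 low WT clone, and the Nop10 means lie lower in the cKO groups, with 1 high WT clone.

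Of the 8 small subunit factors, 6 rose. Wdr43, Utp4 and Utp15 belong to the complex that binds the 5′ end of the precursor as it is transcribed. Wdr43 was at 59.3, 43.96, 49.1, 51.05 and 46.1 CPM in the WT clones, 76.6, 107, 89.5, 117 and 141 in the P28 clones, and 171, 206, 145 and 169 in the P4M clones. The 3 groups did not overlap, and the log2 fold change was 1.44 (adjusted p = 1.56e-05, SE 0.15). Utp4 was at 34.01, 30.99, 38.996, 34.3 and 27.7 CPM in the WT clones, 55.9, 65.6, 58.4, 79.98 and 91.8 in the P28 clones, and 98.2, 91.9, 99.01 and 87.1 in the P4M clones, with all cKO above all WT clones, P28 replicate 5 at the P4M level and a log2 fold change of 1.29 (adjusted p = 1.5e-05, SE 0.14). Both carry the E-box in their promoter windows, as does Utp20 of the same role, which was not called. The share with it was 19.2% among the members called higher and 22.2% among the others. Utp15 rose 1.69-fold, Nop14, a scaffold of the small subunit precursor, 1.71-fold, its partner Noc4l 1.61-fold and Bysl, bystin, 1.42-fold (adjusted p from 6.17e-05 to 0.0133).

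Utp20 and Rrp12 were the small subunit factors that did not pass the test. Utp20, a large scaffold protein, was at 187, 60.1, 78.2, 71.5 and 99.8 CPM in the WT clones, 60.7, 83.4, 66.9, 63.6 and 84.8 in the P28 clones, and 119.9, 101, 95.8 and 106 in the P4M clones. WT replicate 1 was above all clones, and the other WT clones overlapped both cKO groups. Its log2 fold change was -0.19 (adjusted p = 0.514) and turned to 0.15 without WT replicate 1 (adjusted p = 0.378). Rrp12, an export factor, was at 48.6, 28.1, 36.2, 38.1 and 27.8 CPM in the WT clones, 21.6, 35.6, 22.5, 30.3 and 44.7 in the P28 clones, and 57.9, 47.2, 29.1 and 79.1 in the P4M clones. P4M replicates 1 and 4 were high, replicate 3 was at the level of the lower WT clones, and the adjusted p was 0.557.

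Of the 11 large subunit factors, 8 rose. Noc2l, which takes part in early large subunit assembly and is also known to bind p53 and inhibit histone acetylation, showed the largest difference of all 40 genes. It was at 41.8, 18.9, 26.6, 42.4 and 36.8 CPM in the WT clones, 87.4, 118, 79.9, 127 and 179 in the P28 clones, and 163, 153, 151 and 223 in the P4M clones. Every cKO clone was above every WT clone by a wide gap, and the log2 fold change was 2.10 (adjusted p = 3.37e-05, SE 0.25), a 4.28-fold difference. Noc2l (chr4:156236010-156247616 on mm10, GENCODE M21) shares 598 exonic bases with Samd11 on the other strand, and the counting is not stated to use strand, so their reads cannot be fully told apart. Ebna1bp2, a factor of early large subunit assembly and the one with the highest mean TPM of the 11 over all clones, though not in the WT clones, where Rrs1 was at 56.5 and Ebna1bp2 at 56.2 TPM, was at 37.8, 35.9, 76.1, 47.97 and 42.9 CPM in the WT clones, 63.2, 78.9, 55.2, 76.4 and 94.1 in the P28 clones, and 107, 92.6, 92.6 and 96.99 in the P4M clones. WT replicate 3 lay within the P28 range and below the P4M clones, and the log2 fold change was 0.81 (adjusted p = 0.00269, SE 0.18). Nip7 rose 2.14-fold, the RNA methyltransferase Nop2 1.97-fold, Nop16 1.62-fold and Rrp1b 1.51-fold. The Nop16 call was lost in 3 of the 14 fits without 1 clone.

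Pes1, Bop1 and Wdr12 form 1 complex (PeBoW) in large subunit maturation. Bop1 rose 1.83-fold (adjusted p = 0.000562) and Pes1 1.61-fold (adjusted p = 0.000945), whereas Wdr12 was not called, with a log2 fold change of 0.13 (adjusted p = 0.454, SE 0.13). This depended on the scale, since limma on TPM called Wdr12 at 0.63 (adjusted p = 0.00361), and in P28 against WT its log2 fold change turned from -0.17 to 0.35. Wdr12 was at 38.6, 31.7, 50.8, 50.7 and 43.4 CPM in the WT clones, 30.7, 42.2, 34.1, 38.2 and 46.8 in the P28 clones, and 63.1, 53.8, 54.97 and 58.7 in the P4M clones. The P28 clones lay within or just below the WT range and the P4M clones above both. In P4M against WT, edgeR called Wdr12 higher (log2 fold change 0.42, adjusted p = 0.0450), a call lost in 10 of the 14 fits without 1 clone. The TPM ratio of Pes1 to Bop1 was 1.04, 0.969 and 0.851 in the median WT, P28 and P4M clone, and that of Wdr12 to Bop1 0.386, 0.271 and 0.336, with overlap between the WT clones and each cKO group in both ratios.

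Rrs1 and Wdr74 showed the same shape as Wdr12, with P28 clones near the WT clones. Rrs1, which helps bring the 5S RNA into the large subunit, was at 76.2, 63.1, 105, 81.1 and 56.3 CPM in the WT clones, 46.03, 68.7, 56.3, 57.7 and 73.2 in the P28 clones, and 102, 94.4, 93.5 and 118 in the P4M clones. The P28 clones lay low within the WT range or below it and the P4M clones high in it or above, and in all cKO against WT the log2 fold change was 0.04 (adjusted p = 0.845). Wdr74, a large subunit assembly factor, was at 34.6, 26.4, 25.2, 37.4 and 27.9 CPM in the WT clones, 25.6, 36.7, 24.9, 33.5 and 34.2 in the P28 clones, and 55.3, 52.2, 32.7 and 70.998 in the P4M clones. P4M replicates 1, 2 and 4 were above all WT and P28 clones, and replicate 3 was among them. Wdr74 was not called in all cKO against WT (log2 fold change 0.42, adjusted p = 0.0676), but was by limma on TPM (0.54, adjusted p = 0.0218). In P4M against WT, edgeR called Wdr74 higher (0.80, adjusted p = 0.00733), a call kept in all 14 fits without 1 clone.

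**Figure D3:**
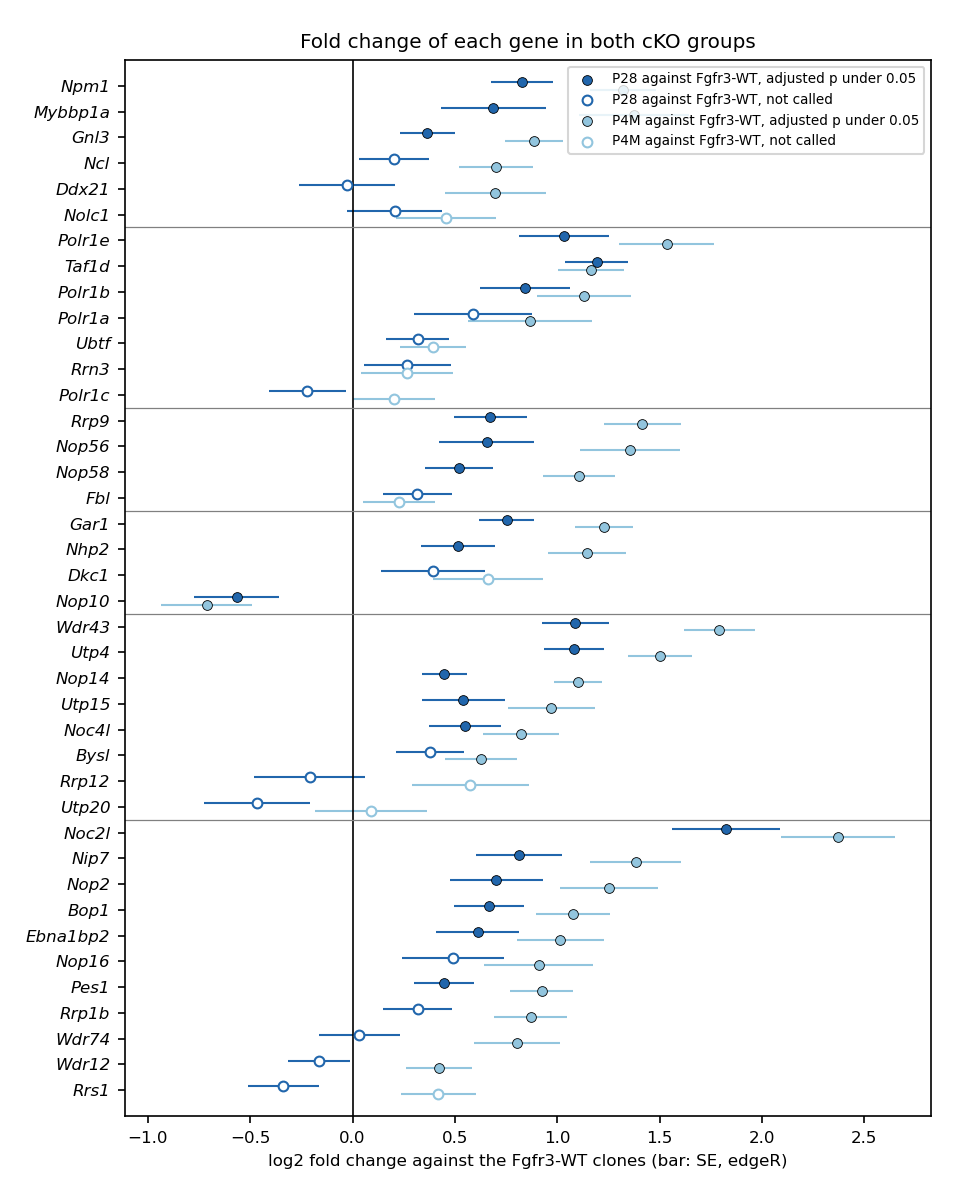
Log2 fold change against the WT clones (horizontal axis, bars are SE from edgeR) of each gene in the P28 (dark blue) and P4M (light blue) clones, by role; filled points have an adjusted p under 0.05 and open points do not. The P4M point lies to the right of the P28 point in 36 of the 40 genes, and Nop10 alone has filled points below 0.

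The difference between the cKO groups was tested directly. In P4M against P28 clones, 7 of the 40 genes were called higher, where 3.34% of all genes were, and 0 were called lower, where 3.88% were. The estimated fold change was above 0 for 36 of the 40, where it was for 8503 of the 17358 tested genes, with a median of 0.50 against -0.01. An unadjusted p under 0.05 was found for 23 of the 40, all of them higher, and for 4474 of the 17358 tested genes in either direction. By DESeq2, 14 were called higher and 0 lower, counts for which the share over all genes is not given here. The count rested on single clones. It was 1 without P28 replicate 1 or 3 or without P4M replicate 1, 2 or 4, 3 without P28 replicate 4, 14 without WT replicate 1 and 15 without P28 replicate 5. Every P4M clone lay above every P28 clone for 13 genes, against 9.07% of all genes.

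The 7 genes called in P4M against P28 were Nop14, Rrs1, Wdr43, Rrp9, Wdr74, Wdr12 and Gnl3. Nop14 was at 56.7, 50.8, 55.3, 54.03 and 46.3 CPM in the WT clones, 62.9, 83.5, 66.5, 66.02 and 80.2 in the P28 clones, and 111, 105, 109.6 and 125 in the P4M clones. The P4M clones were above all P28 clones, which were above all WT clones, and the log2 fold change of P4M against P28 was 0.65 (adjusted p = 0.00895, SE 0.12). Gnl3 was at 95.2, 82.95, 104, 72.8 and 75.9 CPM in the WT clones, 86.3, 113, 103, 117 and 135 in the P28 clones, and 163, 168, 148 and 158 in the P4M clones, with P4M clones above all others and P28 replicates 1 and 3 within the WT range, and its log2 fold change was 0.52 (adjusted p = 0.0432). For Rrs1 it was 0.76 (adjusted p = 0.0279), for Wdr43 0.70 (0.0283), for Rrp9 0.74 (0.0307), for Wdr74 0.77 (0.0421) and for Wdr12 0.59 (0.0423). Of the 14 refits with 1 clone removed, the Nop14 call held in 14, that of Wdr43 in 9, those of Rrs1, Rrp9 and Wdr74 in 8 each, that of Wdr12 in 6 and that of Gnl3 in 5. By role, the median difference was 0.28 for the 7 Pol I genes, of which 0 were called and 1, Polr1e, had an unadjusted p under 0.05, and 0.55 for the 11 large subunit factors, of which 3 were called.

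Clones of a group differed as a whole. The mean over the 40 genes of log2 CPM, less the WT mean, was 0.16, -0.23, 0.12, -0.01 and -0.04 in the WT clones, 0.12, 0.56, 0.25, 0.54 and 0.84 in the P28 clones and 1.02, 0.89, 0.74 and 1.07 in the P4M clones. P28 replicates 1 and 3 lay near the upper WT clones, P28 replicate 5 lay within the P4M range, and the P4M clones were all above the WT clones. P28 replicate 5 was the highest of its group for 32 of the 40 genes, and P28 replicate 1 the lowest for 31. In the same P28 clones Myc was at 44.1, 77.4, 51.0, 74.6 and 79.6 CPM and Mki67 at 49.1, 103, 136, 105 and 142 CPM, and their part in the spread was not tested. In the P4M group, replicate 3 was the lowest for 28 genes and replicate 4 the highest for 20.

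The spread within a group was largest for Polr1a in the WT (SD of log2 CPM 0.69), Rrn3 in the P28 (0.53) and Rrp12 in the P4M clones (0.60), and smallest for Noc4l (0.08), Ubtf (0.11) and Nip7 (0.07). The median SD over the 40 genes was 0.31 in the WT, 0.32 in the P28 and 0.16 in the P4M clones, against 0.40, 0.23 and 0.20 over 8984 genes in the same range of CPM. The P28 group was thus the group in which the median spread of the ribosome biogenesis genes exceeded that of the comparable genes.

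**Figure D4:**
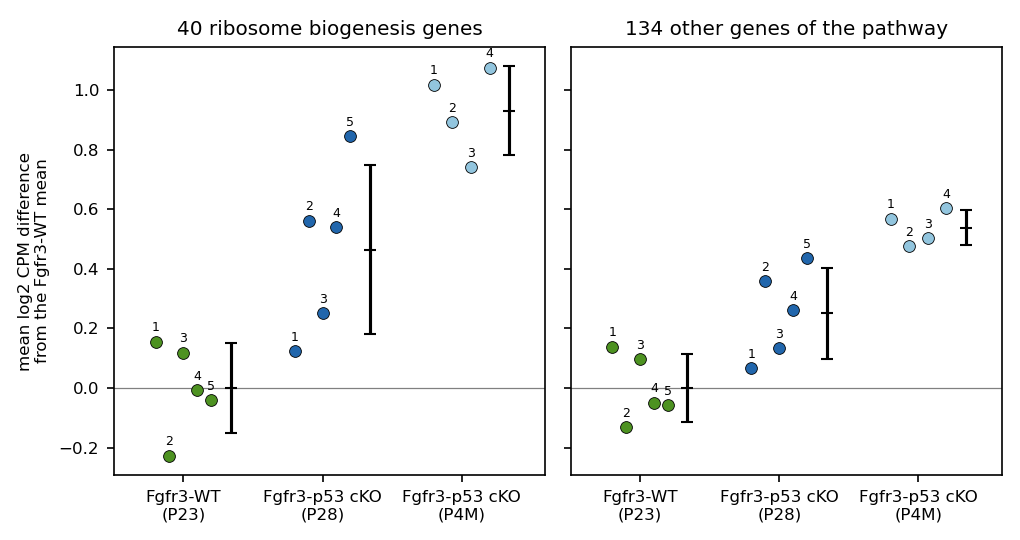
Mean log2 CPM difference from the WT mean in each clone (points, numbered by replicate; bars are mean and SD over the 5, 5 and 4 clones) for the 40 genes and for 134 other genes of the pathway. Among the 134 genes the P4M clones sit highest, among the 40 genes P28 replicate 5 lies within the P4M range, and in both panels P28 replicates 1 and 3 lie close to the upper WT clones.

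Other genes of the pathway were taken from a list of 142 symbols that includes older names, of which 135 were found and 134 tested. This list, too, was chosen with earlier results of these data known. In all cKO against WT clones 73 of the 134 (54.5%) were called higher and 10 (7.46%) lower, against 23.1% and 25.7% of all tested genes, with a median log2 fold change of 0.47 against -0.05. By clone, their mean difference from WT was 0.07 to 0.44 in the P28 and 0.48 to 0.60 in the P4M clones, and the P28 replicates 1 and 5 were again the lowest and the highest of their group. The largest rises were those of Dis3, the catalytic subunit of the RNA exosome (log2 fold change 1.82, adjusted p = 4.38e-06), Mrto4, a factor of large subunit assembly (1.78, adjusted p = 1.95e-05), and Nol9, a kinase of rRNA processing (1.47, adjusted p = 3.44e-05). The largest falls were those of Polr2l, a small subunit that all 3 nuclear RNA polymerases share (-1.55, adjusted p = 8.65e-05), Taf1b, a partner of Taf1d in the selectivity factor (-0.99, adjusted p = 0.000483), and Ttf1, the terminator of Pol I transcription (-0.96, adjusted p = 0.000415).

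Of the 14 other Pol I genes tested, 4 rose, 4 fell and 6 were not called, shares near those over all genes (23.1% higher and 25.7% lower), and their median log2 fold change was -0.05. Taf1b lay at 21.4, 18.98, 16.9, 17.1 and 10.2 CPM in the WT clones, 9.96, 6.67, 9.48, 6.49 and 7.86 in the P28 clones, and 9.11, 9.81, 8.02 and 8.76 in the P4M clones. The WT clones and the cKO clones did not overlap, in the opposite direction to Taf1d. Twistnb, a Pol I subunit, and Polr1d, the partner of Polr1c, both named after their values were seen, rose by log2 fold changes of 1.10, adjusted p = 4.27e-05 and 0.68, adjusted p = 8.47e-05. The other small subunit factors were called higher in 27 of 48 and the large subunit factors in 33 of 51, while 9 of 21 genes of the rRNA exosome and related factors were.

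Some of the 40 genes share a feature of gene structure. Introns of 7 of them (17.5%) hold small nucleolar RNA genes, 27 in all, against 1.85% of 13750 tested protein-coding genes, in GENCODE M21. These hosts are Dkc1, Gnl3, Ncl, Nop56, Nop58, Taf1d and Wdr43, and Taf1d holds 8 such genes. Of the hosts, 6 rose in all cKO against WT clones, where 28 of the 40 genes and 23.1% of all genes did, and Dkc1 was not called. Ncl, among the 6, lost its call in 3 of the 14 refits. The small RNAs themselves are not analysed here. Near-identical processed copies, at 95% identity or more over at least 300 bases, exist for Npm1, Nop56, Pes1, Taf1d, Wdr12 and Ddx21 besides Fbl, and the copies held at most 4.86% of the counts of their gene. Exons on the opposite strand overlap Bysl by 361 bases (Ccnd3), Taf1d by 312, Polr1a by 185, Nop14 by 144, Pes1 by 138 and Mybbp1a by 131 bases, and their reads cannot be told apart from those of the partner there.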

How the data were processed

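The deposited tables of 14 clones were used as they were given. By the methods, the authors prepared cDNA with a SMART-Seq kit, sequenced single-end reads, aligned them to mm10 with TopHat and Bowtie2 and counted non-ambiguously mapped reads with HTSeq. The deposited count table holds raw, whole-number counts for 30503 genes. The deposited expected counts, once rounded, were equal to them for all 30503 genes. They were run as an alternative, but this refit repeats the main counts and is no separate check. The deposited TPM values, scaled to gene length and to a common total by the authors, served for levels between genes. How expected counts and TPM were made is not given in the sources used here. The depth-normalized counts, the rlog values and the FPKM values were not used.

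Genes were tested in R 4.3.3 with edgeR 4.0.16. After filterByExpr (17358 genes left) and TMM normalization, a robust quasi-likelihood model of 3 groups was fitted over the 14 clones together. It contrasted the mean of both cKO groups against WT, each cKO group against WT, and P4M against P28, with Benjamini-Hochberg adjustment over all tested genes and an FDR of 0.05. The SE of a log2 fold change was taken from its F value. Log2 CPM used a prior count of 2, and limma 3.58.1 was run on log2(TPM + 1). Coordinates, snoRNA genes and overlaps came from GENCODE M21 (mm10), promoters from RefSeq (GRCm38.p6) and similar transcripts from blastn 2.17.0 at 95% identity and 300 bases. Alternatives were DESeq2 1.42.0, RLE or no scaling, no filter or a floor of 10 counts per clone, the expected counts, a fit restricted to the groups of a contrast, a required log2 fold change of 1 or more in size, the TPM values, counts thinned to the smallest total, and each clone left out in turn.

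Groups came from the sample labels, replicate numbers are running numbers within a group, and no pair of libraries of a group agreed within sampling noise. The members and lists were chosen with earlier results of these data known. Named genes are, per role, those with the highest mean TPM and the largest fold change, those not called higher in all cKO against WT (up to 10, largest fold change first), those called in P4M against P28, and 3 rising and 3 falling genes of the other list. Rrs1 and Polr1c, not called higher, are named under other parts of this rule, and further members are given by fold or range. Total counts of 25688946 to 52857424 set the precision, and limits from counts cover counting error only.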

Additional observations from a re-analysis of the deposited data

Results flagged for a closer look

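In 2 of 69 combinations of a named gene and a group, 1 clone stood apart from the rest of its group by Dixon's ratio at the 95% level, which chance does in about 1 of 20. Over all 40 genes it was 7 of 120, and 3 of these were WT replicate 1, for Ncl, Polr1b and Dkc1. Dkc1 was at 20.7 CPM in WT replicate 1, against 46.9 to 56.9 CPM in the other 4 WT clones. Noc2l was at 222.9 CPM in P4M replicate 4, against 151.1 to 162.8 CPM in the other 3 P4M clones, all of them above every WT clone.

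For 7 genes the P4M and the P28 clones, each set against the same WT clones, differed from each other by the edgeR contrast between them. The log2 fold changes of P4M against P28 were 0.65 for Nop14, 0.76 for Rrs1, 0.70 for Wdr43, 0.74 for Rrp9, 0.77 for Wdr74, 0.59 for Wdr12 and 0.52 for Gnl3. For Nop14, Rrs1, Wdr43, Wdr12 and Gnl3 every P4M clone lay above every P28 clone, and for Rrp9 and Wdr74 the groups overlapped. By the labels the P4M clones were at passage 6 to 8 and the P28 clones at passage 8, while the methods give passage 6 to 8 for both, and the part of passage was not tested.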

How the results depend on the processing

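The median log2 fold change of the 40 genes stayed above 0 in every fit run, at 0.64 to 0.89 in all cKO against WT, 0.37 to 0.77 in P28 against WT, 0.86 to 1.05 in P4M against WT and 0.29 to 0.61 in P4M against P28. The highest values of the first 2 came from limma on TPM (0.89 and 0.77), where the median of all genes also moved, to 0.13 and 0.20, and to -0.14 in P4M against P28. With a minimum absolute log2 fold change of 1, the genes called higher were 10 in all cKO against WT, 5 in P28 against WT, 18 in P4M against WT and 0 in P4M against P28, and for the other genes of the pathway 15 higher and 1 lower in all cKO against WT and 0 higher in P4M against P28. Fitting only the groups compared gave 12 in P28 against WT and 15 in P4M against P28, and for the other genes 33 higher and 1 lower in P4M against P28. DESeq2 gave 14 and 25 genes called higher in P4M against P28 for the 40 and for the other genes, no scaling gave 2 and 5, and limma gave 0 (8 at an unadjusted p under 0.05) and 1. The cause of these moves was not tested. The shares of all genes called under these settings are not given here. These counts therefore show no excess over all genes by themselves. The Nop10 fall was lost (0 genes called lower) with limma in all cKO and in P28 against WT, with the minimum fold change in every comparison with WT, and in P28 against WT also with no scaling, no filter and only the groups compared.

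Leaving out 1 clone gave 25 to 29 genes called higher in all cKO against WT, 12 to 21 in P28 against WT, 27 to 32 in P4M against WT and 1 to 15 in P4M against P28. It gave 1 called lower in all cKO against WT and 0 to 1 in each cKO group against WT. For the other genes it gave 65 to 74 higher and 8 to 12 lower in all cKO against WT, and 4 to 26 higher in P4M against P28, with 25 or 26 without P28 replicate 5 or WT replicate 1 and 4 to 8 without P28 replicate 1, 3 or 4 or P4M replicate 1, 2 or 4. In the comparison of all cKO with WT, log2 fold changes near 0 changed sign. That of Polr1c was 0.0041 with DESeq2, 0.0043 with RLE, 0.038 with no scaling, 0.057 with no filter, 0.0064 with at least 10 counts in every clone, and -0.12 to 0.14 without 1 clone. That of Rrs1 was -0.053 to 0.18 and that of Utp20 -0.33 to 0.15 without 1 clone. Of 1345 fits of the named genes under an alternative, 1161 kept direction and side of the threshold, 159 lost a call, 10 gained one and 15 changed sign. The fits that kept both include those on the expected counts, which repeat the main counts. No paired analysis was possible because the replicate numbers are running numbers and the labels tie no clone of one group to a clone of another.

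A count of 0 would allow at most 0.117 CPM, and the lowest value of a member was 4.02 CPM. Some calls near the threshold were lost when counts were thinned at random, and the part of depth in this was not tested. With counts thinned to the smallest total, the calls lost included those of Ubtf in all cKO against WT (adjusted p = 0.0704), Nhp2 and Gnl3 in P28 against WT, Wdr12 in P4M against WT (adjusted p = 0.0806) and Gnl3 in P4M against P28. At full depth, these Ubtf and Wdr12 calls were also lost in 12 and 10 of the 14 fits without 1 clone. The names of the WT libraries carry another number than those of the cKO libraries, and the labels do not say what it stands for.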
